A study of Mus musculus with 8 samples.

Results

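Sorted marrow cells labelled as stem cells from a mouse model of chronic myeloid leukemia (CML) were examined for 10 receptors that steer hematopoietic cells towards chemical signals or hold them in the marrow: Cxcr4, S1pr1, Ccr1, Cx3cr1, Cxcr2, Fpr1, Fpr2, C5ar1, C3ar1 and Ltb4r1. They were chosen by name, and all 10 were found among the 15576 rows of the gene count table. Of these, 8 passed the filter on low counts and were among the 11937 genes tested, whereas Fpr1 and Fpr2 had too few counts. The comparison addressed how leukemic stem cells (LSCs) that persist through treatment with a tyrosine kinase inhibitor (TKI) differ from LSCs of untreated mice. The untreated group, CML, held 4 libraries, called 1, 2, 3 and 5 after their columns. The treated group, CML-TKI, held 4 libraries numbered 1 to 4, from CML mice gavaged with imatinib on alternate days for 4 weeks, or 30 days in the treatment protocol, at 400 mg/kg by the labels. The study's own text also gives a lower dose for LSCs profiled by RNA-seq, and which dose these libraries had was not settled. Both groups carried the same alleles, a tetracycline-controlled BCR-ABL transgene driven through SCL-tTA, which restricts the oncogene to stem and early progenitor cells once tetracycline is removed, and the labels give the strain as C57BL/6. The labels give no age and do not say whether the mice were primary animals or irradiated recipients of CML marrow, both of which the study used. Untreated and imatinib-treated mice without BCR-ABL were not analysed here. Nothing in the labels says that the libraries came from separate animals, so the p-values below measure only the spread between these libraries.

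All 10 genes encode G protein-coupled receptors that signal mainly through inhibitory G proteins and turn a gradient of ligand outside the cell into directed movement. Cxcr4 binds the chemokine Cxcl12 and is best known for keeping hematopoietic stem cells in the marrow, while S1pr1 reads sphingosine 1-phosphate (S1P), which is high in blood, and draws cells out. The remaining receptors are best known from mature myeloid cells: Ccr1, Cx3cr1 and Cxcr2 bind chemokines, Fpr1 and Fpr2 bind formylated peptides, C5ar1 and C3ar1 bind the complement fragments C5a and C3a, and Ltb4r1 binds the lipid leukotriene B4.

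The upstream sequence of 4 receptors is shown first, because 3 of them hold a motif of a myeloid or STAT factor and the fourth, Cxcr4, has the highest level in both groups. Each run is the 250 bases before the RefSeq start of the gene in GRCm38.p6, written 5′ to 3′ on the strand of the gene. For Cxcr4 the bases after that start were not found in a GENCODE M21 transcript of the gene. The stretches lie at chr9:123968693-123968942 on the minus strand for Ccr1, chr14:55765712-55765961 on the plus strand for Ltb4r1, chr17:17887574-17887823 on the plus strand for Fpr2 and chr1:128592300-128592549 on the minus strand for Cxcr4. Capitals mark the PU.1 core GAGGAA, which reads TTCCTC on the other strand, and the STAT motif TTCNNNGAA, which reads the same on both strands.
Ccr1: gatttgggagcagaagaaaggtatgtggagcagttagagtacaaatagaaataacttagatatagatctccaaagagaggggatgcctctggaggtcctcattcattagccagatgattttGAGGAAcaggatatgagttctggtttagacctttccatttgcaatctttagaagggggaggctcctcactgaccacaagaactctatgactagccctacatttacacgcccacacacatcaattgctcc
Ltb4r1: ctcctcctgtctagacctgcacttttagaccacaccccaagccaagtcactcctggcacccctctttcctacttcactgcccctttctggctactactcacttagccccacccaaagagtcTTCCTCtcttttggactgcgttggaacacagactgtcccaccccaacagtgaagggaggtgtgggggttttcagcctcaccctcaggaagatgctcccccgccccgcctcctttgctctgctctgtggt
Fpr2: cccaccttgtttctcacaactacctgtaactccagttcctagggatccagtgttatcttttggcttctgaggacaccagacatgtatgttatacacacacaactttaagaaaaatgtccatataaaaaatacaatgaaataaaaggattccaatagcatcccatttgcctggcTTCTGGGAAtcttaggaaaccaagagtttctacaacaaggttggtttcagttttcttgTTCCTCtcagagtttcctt
Cxcr4: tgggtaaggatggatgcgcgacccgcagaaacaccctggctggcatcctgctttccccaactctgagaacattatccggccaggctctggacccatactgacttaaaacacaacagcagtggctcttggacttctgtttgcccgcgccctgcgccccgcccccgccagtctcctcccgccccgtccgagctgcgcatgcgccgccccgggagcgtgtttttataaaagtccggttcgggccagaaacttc
The RefSeq table held an upstream sequence for 9 of the 10 receptors, all but S1pr1. The PU.1 core was found in 4 of these 9, starting 129 bases before the gene start in Ccr1 and in Ltb4r1, 81 bases before it in Cxcr2 and 19 bases before it in Fpr2. Over all 32851 upstream sequences of the same length, 23.3% held it. The STAT motif was found in 1 of the 9, as TTCTGGGAA starting 77 bases before the start of Fpr2, against 7.02% of all upstream sequences. The C/EBP motif TTGCNNAA, searched on both strands, was found in 0 of the 9, against 9.56%. The motifs do not overlap each other in these 9 sequences. They were chosen with the expression values known, and a match is a run of letters, not a binding site.

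Total counts ranged from 4939645 to 8620102 in the CML libraries and from 1041554 to 5104272 in the CML-TKI libraries. Levels are given as CPM, counts scaled to a common library size with TMM, the trimmed mean normalization of edgeR, and the level of 3 counts, used as a floor, was between 0.406 and 0.576 CPM in CML and between 0.566 and 3.27 CPM in CML-TKI, highest in CML-TKI 3. Floors cover counting error only. CML libraries 1 to 3 resembled one another more closely than other pairs of libraries, with a chi-square per degree of freedom of 3.56 to 4.79 between them against 51.3 to 55.3 between each of them and CML 5. Haemoglobin genes took 6.62% of the counts of CML-TKI 3 and at most 0.0428% in any other library. CML-TKI 1 had the smallest summed level of granulocyte and of monocyte markers in its group and the largest of hematopoietic stem cell markers.

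The labels describe the sorted cells as stem cells with a Lin-Sca1+cKit+Flt3-CD150-CD48+ gate, while a legend of the study defines LSCs by the opposite pattern of CD150 and CD48. The transcripts of these surface proteins differed between the groups. Slamf1, which encodes CD150, was at 28.8 to 37.5 CPM in the CML libraries and at 0.616 to 6.53 CPM in the CML-TKI libraries, and Cd48 was at 3.84 to 6.36 CPM and at 39.6 to 177 CPM. Kit was at 759 to 1017 CPM in CML and at 193 to 289 CPM in CML-TKI. In the quasi-likelihood test of edgeR, with p-values adjusted by the Benjamini-Hochberg method, Slamf1 fell (log2 fold change -3.42, adjusted p = 0.00797), Kit fell (-1.92, 8.7e-04) and Cd48 rose (4.35, 8.7e-04), whereas Ly6a (-1.12, 0.373) and Flt3 (0.65, 0.522) did not pass the threshold. Ly6a, which encodes Sca1, was at 33.0 to 38.2 CPM in CML and at 44.0, 9.54, 8.71 and 1.55 CPM in CML-TKI 1 to 4. CML-TKI 1 thus lay above every CML library and CML-TKI 2, 3 and 4 lay below. Since these transcripts and the marker lists given next differed between the groups, the groups are called by their libraries below.

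Markers of the granulocyte and monocyte lineages differed between the groups, and their values are given here ahead of those of the receptors. Of 13 granulocyte markers, 12 were tested and 11 rose, where 6.29% of all tested genes were called higher. Their summed level was 164 to 270.2 CPM in CML and 1489 to 8531 CPM in CML-TKI. Mpo, a granule peroxidase, was at 2.68 to 25.7 CPM in CML and at 690.4 to 4608 CPM in CML-TKI, and the elastase Elane at 0.768 to 6.36 CPM and 219 to 1399 CPM. Both are early granule genes, which granulocyte-monocyte progenitors express. Which cells these transcripts came from was not tested. Of the later neutrophil markers, Camp, Ngp, Lcn2, Mmp8, S100a8 and S100a9 rose (log2 fold changes from 2.43 for Ngp to 2.94 for Mmp8), Ltf did not pass the threshold (2.37, adjusted p = 0.101) and Ly6g was not tested. They were named after their values were seen. Of 8 monocyte and macrophage markers, all tested, 7 rose, with summed levels of 16.1 to 36.5 CPM and 681 to 3712 CPM. F13a1, the coagulation factor XIII subunit made by monocytes, was at 2.30 to 6.49 CPM in CML and at 301 to 1844 CPM in CML-TKI. No marker of these lists was at 0 in every library of a group.

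Of 10 hematopoietic stem cell markers, 9 were tested, of which 3 fell and 6 did not pass the threshold, where 3.93% of all tested genes were called lower. Their summed levels were 1107 to 1449.9 CPM in CML and 47.7 to 424 CPM in CML-TKI. Among them, the transcription factor genes Hlf and Meis1 fell, Hlf from 254 to 362 CPM in CML to 4.39 to 81.5 CPM in CML-TKI (log2 fold change -3.64, adjusted p = 0.0303 in the quasi-likelihood test) and Meis1 from 272 to 323 CPM to 8.71 to 85.5 CPM (-3.07, 0.0102). Of the 7 endothelial markers tested, 3 fell, with summed levels of 374 to 603 CPM in CML and 61.6 to 138 CPM in CML-TKI, and of 6 megakaryocyte markers tested, 2 fell (1194 to 1436 CPM and 48.3 to 581 CPM). Both mast cell and basophil markers that were tested rose, with a summed level over the list of 4.46 to 6.72 CPM in CML and 43.6 to 1226 CPM in CML-TKI, highest in CML-TKI 4, and Mcpt8 was at 0 in every CML library. Erythroid markers summed to 99.1 to 162 CPM in CML and to 52.8 to 35562 CPM in CML-TKI, highest in CML-TKI 3, and lymphoid markers to 11.3 to 26.6 CPM and 17.2 to 376 CPM, with Cd3e at 0 in every CML library. The part of these cell types in the receptor values was not tested, and in bulk RNA fewer cells of a type and less RNA per cell cannot be told apart.

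**Figure D1:**
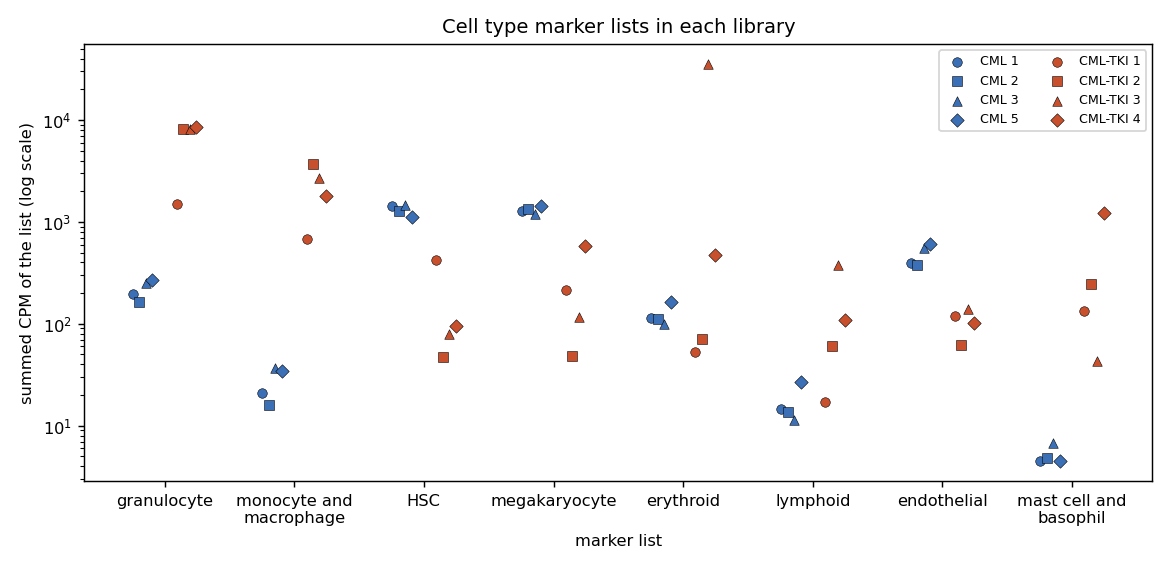
Summed CPM of each cell type marker list in the 4 CML and 4 CML-TKI libraries, on a log scale, with one point per library. Granulocyte markers span 164 to 270.2 CPM in CML and 1489 to 8531 CPM in CML-TKI, whereas stem cell markers span 1107 to 1449.9 CPM in CML and 47.7 to 424 CPM in CML-TKI.

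Cxcr4, Ccr1, Cx3cr1, C3ar1 and Ltb4r1 were higher in the libraries labelled CML-TKI, past the threshold of 0.05 on the adjusted p. Cxcr2, C5ar1 and S1pr1 did not pass the threshold, and Fpr1 and Fpr2 were not tested. The 5 receptors that passed stand against a background of 10.2% of all tested genes called in either direction and 6.29% called higher, with 3.93% called lower. In 4 of them, all but Cxcr4, every CML-TKI library lay above every CML library, as did 10.3% of all tested genes, with 13.1% entirely lower and 23.4% without overlap in either direction. The filter asked for 2.01 CPM, on unscaled totals, in at least 4 libraries, and only Cxcr4 and S1pr1 reached that in the CML libraries alone. Ltb4r1 and Cxcr2 reached it in 2 CML libraries, Ccr1 and C5ar1 in 1 and Cx3cr1 and C3ar1 in 0, so these 6 entered the test through their counts in the CML-TKI libraries. For that reason the share of tested receptors that rose is not read as a result. When CML libraries 1 to 3, which resembled one another, were summed to 1 library, Ccr1 passed the threshold and the adjusted p was 0.0529 for Ltb4r1, 0.123 for Cx3cr1, 0.194 for C3ar1 and 0.262 for Cxcr4. The median log2 fold change over all tested genes was -2.5e-04.

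**Figure D2:**
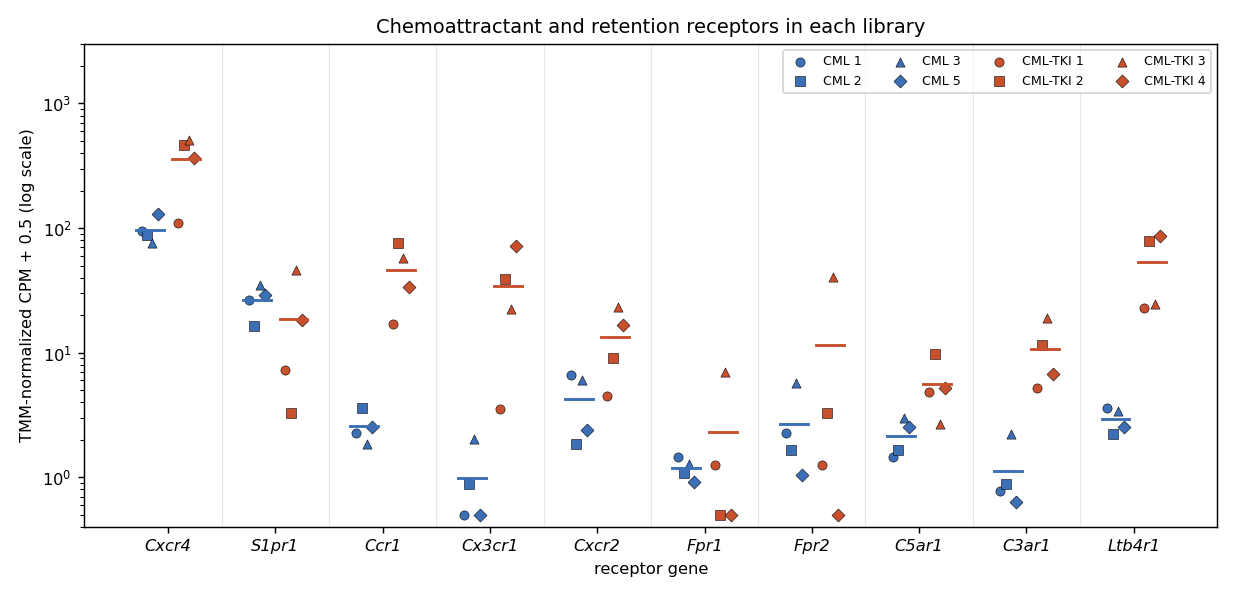
TMM-normalized CPM plus 0.5 of the 10 receptors on a log scale, one point per library, with CML libraries 1, 2, 3 and 5 in blue and CML-TKI libraries 1 to 4 in red. Cxcr4 is the highest row in both groups, Ccr1, Cx3cr1, C3ar1 and Ltb4r1 show no overlap, and the highest Fpr2 value is the 40.3 CPM of CML-TKI 3.

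Among the retention receptors, Cxcr4 was abundant in both groups. It lies at chr1:128588199-128592299 on the minus strand, with 2 exons in its transcripts. Cxcr4 was at 94.6, 87.6, 75.6 and 128 CPM in CML 1, 2, 3 and 5 and at 109, 463, 506 and 361 CPM in CML-TKI 1 to 4, from 394 to 1505 counts per library. CML-TKI 2, 3 and 4 stood far above all CML libraries, and CML-TKI 1 lay within the CML range. The mean was 96.5 ± 22.4 CPM (SD, n = 4) in CML and 360.01 ± 178 CPM (SD, n = 4) in CML-TKI, a log2 fold change of 1.90 (standard error, SE, 0.42, 95% confidence interval 0.95 to 2.84, Benjamini-Hochberg adjusted p = 0.0208 in the quasi-likelihood test of edgeR). The call for Cxcr4 rested on single libraries: the adjusted p was 0.0706 without CML 1, 0.0703 without CML 2, 0.0727 without CML 3 and 0.0535 without CML-TKI 2, at log2 fold changes between 1.74 and 1.89. Without CML-TKI 1 the log2 fold change was 2.20 with an adjusted p of 4.2e-04.

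S1pr1 (chr3:115710433-115715055, minus strand), the receptor for the exit signal S1P, did not pass the threshold. S1pr1 was at 25.98, 15.7, 34.2 and 28.5 CPM in CML 1, 2, 3 and 5 and at 6.79, 2.77, 45.7 and 17.8 CPM in CML-TKI 1 to 4. CML-TKI 3 had the highest value of all 8 libraries, CML-TKI 1 and 2 lay below every CML library, and CML-TKI 4 fell inside the CML range. The mean was 26.1 ± 7.72 CPM in CML and 18.3 ± 19.4 CPM in CML-TKI (SD, n = 4 each), a log2 fold change of -0.60 (SE 0.71, adjusted p = 0.647). Its 95% confidence interval, -2.17 to 0.98, leaves room for a rise or a larger fall. Without CML-TKI 3 the log2 fold change of S1pr1 was -1.50 (adjusted p = 0.147).

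Ccr1 and Ltb4r1, receptors for inflammatory CC chemokines and for leukotriene B4, had the smallest adjusted p of the 10 receptors. Ccr1 (chr9:123962126-123968692, minus strand) was at 1.76, 3.07, 1.34 and 2.05 CPM in CML 1, 2, 3 and 5 and at 16.4, 75.7, 56.6 and 33.3 CPM in CML-TKI 1 to 4. Every CML-TKI library lay above every CML library, and CML-TKI 1 was the lowest of its group. The mean Ccr1 level was 2.05 ± 0.735 CPM and 45.5 ± 26.02 CPM (SD, n = 4 each), a 21.8-fold difference with a log2 fold change of 4.45 (SE 0.55, 95% confidence interval 3.23 to 5.67, adjusted p = 0.00137). Ccr1 was called in all 18 alternatives tried, with adjusted p values up to 0.0456.

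Ltb4r1 (chr14:55765962-55768492, plus strand) was at 3.11, 1.73, 2.88 and 2.05 CPM in CML 1, 2, 3 and 5 and at 22.5, 78.5, 24.0 and 85.04 CPM in CML-TKI 1 to 4. Again the groups did not overlap, and CML-TKI 1 and 3 lay well below CML-TKI 2 and 4. The mean was 2.44 ± 0.660 CPM in CML and 52.5 ± 33.9 CPM in CML-TKI (SD, n = 4 each), a 21.4-fold difference with a log2 fold change of 4.42 (SE 0.56, 95% confidence interval 3.18 to 5.66, adjusted p = 0.00154). Ltb4r2, the gene of the low-affinity leukotriene B4 receptor, is its neighbour.

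Cx3cr1, the receptor for the tethered chemokine Cx3cl1 and a marker of patrolling monocytes, was nearly unread in CML. It lies at chr9:120048683-120068296 on the minus strand and overlaps the gene Gm33858, and counting was not stated to use strand, so reads of the pair may be mixed. Cx3cr1 had 0, 2, 8 and 0 counts in CML 1, 2, 3 and 5, 10 counts in all, and 16, 124, 20 and 274 counts in CML-TKI 1 to 4. In CPM these were 0, 0.383, 1.54 and 0 in CML and 3.02, 38.2, 21.8 and 70.8 in CML-TKI. The groups did not overlap, but CML-TKI 1 lay only just above CML 3. The log2 fold change of Cx3cr1 was 6.18 (SE 1.28, 95% confidence interval 3.34 to 9.03, adjusted p = 0.0147), and the call was lost without CML 2 (6.11, adjusted p = 0.0604) or CML 5 (5.72, 0.0504). Without CML 3, which held 8 of the 10 CML counts, the log2 fold change of Cx3cr1 was 7.98, and without CML-TKI 4 it was 5.48, both still called.

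Cxcr2, the receptor for neutrophil-attracting CXC chemokines, was low in both groups. Cxcr2 (chr1:74153994-74161246, plus strand) was at 6.09, 1.34, 5.57 and 1.91 CPM in CML 1, 2, 3 and 5 and at 3.96, 8.62, 22.9 and 16.3 CPM in CML-TKI 1 to 4. CML-TKI 1 lay inside the CML range and the other CML-TKI libraries above it. The log2 fold change of Cxcr2 was 1.75 (SE 0.72, 95% confidence interval 0.14 to 3.36, adjusted p = 0.159), not past the threshold.

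The complement receptors differed from each other in how they stood against the threshold, and the difference between them was not tested. C3ar1 (chr6:122847140-122856157, minus strand), which binds C3a, had 2, 2, 9 and 1 counts in CML 1, 2, 3 and 5 and 25, 36, 17 and 24 counts in CML-TKI 1 to 4. In CPM, C3ar1 was at 0.271, 0.383, 1.73 and 0.137 in CML and at 4.72, 11.1, 18.5 and 6.20 in CML-TKI, without overlap. The log2 fold change was 3.96 (SE 0.91, 95% confidence interval 1.93 to 6.00, adjusted p = 0.0239), and the call for C3ar1 was lost without CML 1 (adjusted p = 0.0947), CML 2 (0.0911) or CML 5 (0.0636). Without CML 3 its log2 fold change was 5.12 (adjusted p = 0.0209).

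C5ar1 (chr7:16246743-16259540, minus strand), the receptor for the stronger chemoattractant C5a, was at 0.947, 1.15, 2.496 and 2.05 CPM in CML 1, 2, 3 and 5 and at 4.34, 9.24, 2.18 and 4.65 CPM in CML-TKI 1 to 4. CML-TKI 3 lay inside the CML range on 2 counts, and the other CML-TKI libraries lay above it. C5ar1 had a log2 fold change of 1.64 (SE 0.67, 95% confidence interval 0.15 to 3.14, adjusted p = 0.154).

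The formyl peptide receptors, neighbours on chromosome 17, were close to the floor outside a few libraries. Fpr1 (chr17:17876471-17883939, minus strand) had 7, 3, 4 and 3 counts in CML 1, 2, 3 and 5 and 4, 0, 6 and 0 counts in CML-TKI 1 to 4, where a count of 0 allows up to 0.924 CPM in CML-TKI 2 and 0.775 CPM in CML-TKI 4. Fpr2 (chr17:17887824-17893952, plus strand), whose upstream sequence holds the STAT motif printed above, had 13, 6, 27 and 4 counts in CML and 4, 9, 37 and 0 counts in CML-TKI. CML-TKI 3 was the highest library for both genes, at 6.53 CPM of Fpr1 and 40.3 CPM of Fpr2. It was also the highest library for Cxcr4, S1pr1, C3ar1 and Cxcr2. Within its group it was the highest for 7 of 13 granulocyte, 7 of 9 lymphoid and 4 of 7 erythroid markers. The granulocyte markers among these included S100a8 (860.1 CPM), which encodes a calprotectin subunit, and the granule gene Ltf (384 CPM). CML-TKI 2 or 4 was the highest for the other 6 granulocyte markers. The granulocyte list summed to 8114 CPM in CML-TKI 3 against 8531 CPM in CML-TKI 4. CML-TKI 3 was the smallest library. Fitted without the filter, Fpr1 had a log2 fold change of 1.08 (adjusted p = 0.696) and Fpr2 of 2.18 (adjusted p = 0.392) by the same test.

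**Figure D3:**
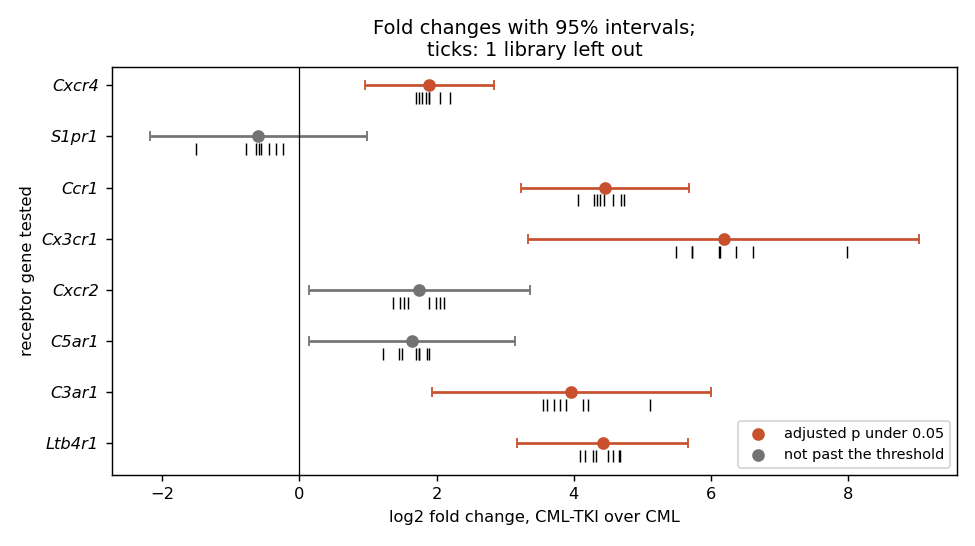
Log2 fold change (CML-TKI over CML) of the 8 tested receptors with 95% confidence intervals from the edgeR fit, with receptors past the threshold in red. The intervals of Ccr1 (3.23 to 5.67) and Ltb4r1 (3.18 to 5.66) are narrower than that of Cx3cr1 (3.34 to 9.03), and that of S1pr1 crosses 0.

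Levels of different receptors were compared after division by transcript length, as CPM per kb. In CML, Cxcr4 stood at 53.4 ± 12.4 CPM per kb (SD, n = 4) and S1pr1 at 8.57, followed by Fpr2 at 1.91, Ltb4r1 at 1.75, Cxcr2 at 1.22, Ccr1 at 0.725, C5ar1 at 0.654, Fpr1 at 0.510, C3ar1 at 0.146 and Cx3cr1 at 0.128. Only the steps from Cxcr4 to S1pr1 and from S1pr1 to Fpr2 separated the library ranges of neighbours in this order. In CML-TKI the order of the same levels was Cxcr4 at 199 ± 98.6 CPM per kb, Ltb4r1 at 37.7, Ccr1 at 16.1, Fpr2 at 9.67, Cx3cr1 at 8.91, S1pr1 at 6.00, Cxcr2 at 4.25, C3ar1 at 2.35, C5ar1 at 2.01 and Fpr1 at 1.38, and no neighbours had separate ranges. By its mean S1pr1 stood at rank 2 in CML and at rank 6 in CML-TKI, a change that was not tested. Cx3cr1, next above it in CML-TKI, was the higher of the 2 in only 2 of 4 libraries. CML-TKI 3 was the highest library for S1pr1 and carried the Fpr2 mean of CML-TKI.

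Other genes of these pathways were read from 6 lists of 101 genes, of which 87 were in the table and 65 were tested. Of the 65, 18 rose, 3 fell and 44 did not pass the threshold, against 10.2% of all tested genes called, and the median log2 fold change was 0.29 against -2.5e-04 over all genes. The number called was 11 without CML 1, 12 without CML 3 and 28 without CML-TKI 1. With CML libraries 1 to 3 summed to 1 library it was 4, all of them higher, and the lists of complement and lipid mediator receptors, S1P genes, signal transduction and desensitisation then had 0 called, so most of the calls given for these lists do not hold under that alternative. The lists were written with earlier results of these data known and are not independent evidence of direction.

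Among other chemokine receptors, 6 of 16 in the table were tested, and the median log2 fold change of the 6 was -0.0027. Ccr2, the receptor that brings monocytes out of the marrow, was at 1.35, 2.88, 3.84 and 1.23 CPM in CML 1, 2, 3 and 5 and at 212, 1011, 731 and 452 CPM in CML-TKI 1 to 4, a log2 fold change of 8.04 (SE 0.65, adjusted p = 4.6e-04 by the quasi-likelihood test). Ccr2 was also in the monocyte marker list.

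Ccr1 and Ccr2 lie in one cluster of chemokine receptor genes on chromosome 9, a view added after the values were seen. Ccr1 and Ccr2, 140 kb apart, rose, and Cxcr6 on the other side had a log2 fold change of 1.88 (adjusted p = 0.293). Ccr3, between Ccr1 and Ccr2, had 2, 5, 8 and 3 counts in CML and 13, 0, 20 and 67 in CML-TKI and was not tested. Ccr9 overlapped between the groups and Xcr1 had at most 8 counts in a library. The deposited counts of Ccr2 were not whole numbers, so reads it shares with related genes cannot be assigned with certainty.

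**Figure D4:**
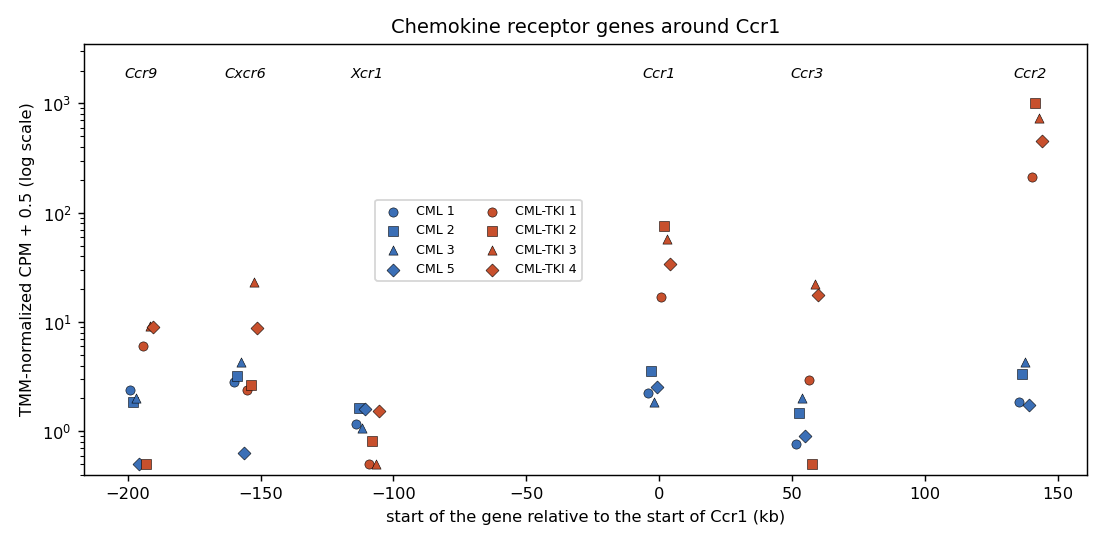
TMM-normalized CPM plus 0.5 (log scale) of 6 chemokine receptor genes within 250 kb of Ccr1, plotted by the distance of their start from that of Ccr1 in kb, one point per library. Ccr2 stands at 212 to 1011 CPM in CML-TKI against 1.23 to 3.84 CPM in CML, and Xcr1 is at 1.15 CPM at most in either group.

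Among other receptors for complement and lipid mediators, 4 of 8 in the table were tested and 2 rose. The number called was 0 without CML 1 or CML 3 and with every library thinned to the smallest total, and 1 without CML 2, CML 5, CML-TKI 2 or CML-TKI 4. Cysltr1, a receptor for cysteinyl leukotrienes, had 7 counts in all CML libraries and a log2 fold change of 5.20 (SE 1.12, adjusted p = 0.0176). Gpr183, which guides cells along oxysterol gradients, was at 4.28 ± 1.27 CPM in CML and 21.95 ± 15.2 CPM in CML-TKI (SD, n = 4 each), a log2 fold change of 2.37 (SE 0.57, adjusted p = 0.0287). Cysltr2 (-3.43, 0.0918) and Ptafr, the platelet-activating factor receptor (0.24, 0.794), did not pass the threshold.

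Of the S1P genes, 10 of 11 were tested, 2 rose and 1 fell. These 3 calls became 1 when any single CML library or CML-TKI 3 was left out. Sgpl1, the lyase that breaks S1P down, was at 36.6 ± 1.88 CPM in CML and 152 ± 57.2 CPM in CML-TKI (SD, n = 4 each), a log2 fold change of 2.05 (adjusted p = 0.00210). The S1P receptor S1pr3 rose (2.55, adjusted p = 0.0448) with overlapping groups. Spns2, which exports S1P from cells, was at 442, 377, 440.4 and 608 CPM in CML 1, 2, 3 and 5 and at 118, 3.39, 20.7 and 43.9 CPM in CML-TKI 1 to 4, a log2 fold change of -3.29 (SE 0.79, adjusted p = 0.0280) without overlap. Spns2 is expressed in endothelial cells as well. Beside it fell 3 of the 7 endothelial markers tested and 3 of the 9 stem cell markers tested. The cause of the fall of Spns2 was not tested. The S1pr1 regulators Klf2 (0.03) and Cd69 (0.26) did not pass the threshold.

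Ligands and the enzymes that make them had 13 genes tested of 19 in the table, and 6 rose. C3, the source of the C3a that C3ar1 binds, was at 8.88 ± 1.98 CPM in CML and 476 ± 275.5 CPM in CML-TKI (SD, n = 4 each), a log2 fold change of 5.74 (SE 0.55, adjusted p = 6.8e-04). The chemokines Ccl6 (5.56, adjusted p = 0.00107) and Ccl9 (6.11, 0.00126), both ligands of Ccr1, rose, as did Anxa1 (2.02, 0.00788), whose protein acts on formyl peptide receptors. In the leukotriene B4 route, the enzyme genes Lta4h (1.58, 0.0131) and Alox5 (2.31, 0.0145) rose, and Alox5ap, whose protein assists Alox5, did not pass the threshold (0.56, 0.351). Alox5 and Alox5ap were named after their values were seen. Cxcl12, the ligand of Cxcr4, was at 34.0, 6.33, 150.3 and 184 CPM in CML and at 0.755, 0, 47.9 and 1.29 CPM in CML-TKI, and with such spread did not pass the threshold (-3.31, 0.214).

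Signal transduction behind the receptors had 19 genes, all tested, and 5 rose, or 3 without CML 1 or CML 2. Among the 5 were the Src-family kinases Fgr (log2 fold change 3.03, adjusted p = 0.0142) and Lyn (1.26, 0.0436), and the regulatory subunits of the G protein-coupled PI3-kinase Pik3r5 (3.11, 0.00373) and Pik3r6 (5.04, 0.00397). Its catalytic subunit Pik3cg (-0.57, 0.254) and the G protein subunit Gnai2 (0.42, 0.316) did not pass the threshold.

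Of 13 tested genes that switch receptors off, 1 rose and 2 fell. The number called was 1 without CML 1, CML 2, CML 3 or CML-TKI 4 and 5 without CML-TKI 1. The 3 genes past the threshold encode RGS proteins, which speed the shut-off of G proteins, while Rgs2, Rgs3, Rgs10 and Rgs14 did not pass the threshold (adjusted p from 0.119 for Rgs2 to 0.871 for Rgs3 in the quasi-likelihood test). Rgs1 was at 58.9 ± 2.27 CPM in CML and 5.22 ± 5.09 CPM in CML-TKI (SD, n = 4 each), a log2 fold change of -3.55 (adjusted p = 0.0255), and Rgs18 went from 169 ± 21.3 CPM to 45.5 ± 22.7 CPM (-1.87, 0.0106), both without overlap. Rgs19 rose (1.09, adjusted p = 0.0420). The arrestin gene Arrb1 (-0.55, 0.155) did not pass the threshold.

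**Figure D5:**
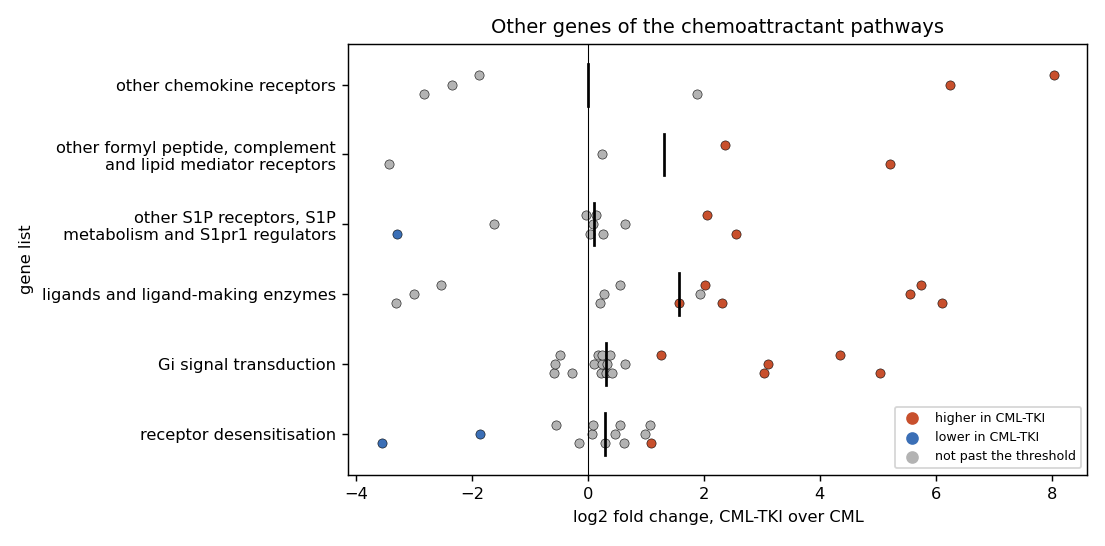
Log2 fold change (CML-TKI over CML) of the 65 tested genes of 6 pathway lists, one point per gene, colored by call, with a black bar at each list's median. The highest point is Ccr2 at 8.04 among other chemokine receptors, and Rgs1 at -3.55 and Spns2 at -3.29 are among the 3 genes that fell.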

How the data were processed

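RNA of sorted bone marrow cells was measured by bulk RNA-seq in 4 CML and 4 CML-TKI libraries. The authors isolated RNA with an RNeasy kit, made Nextera XT libraries and, per the submitters' processing notes and the study's methods, aligned reads to mm10 with STAR 2.6.1d and quantified RefSeq transcripts in Partek Flow 8.0. The deposited values are estimated counts per gene, not normalized, of which 8.32% to 22.1% per library were not whole numbers, and 20 gene symbols had been turned into dates. The fourth CML column carries the number 5, which no label gives, and entered the comparison unnumbered. The labels repeat one library name for the CML samples 1 and 4 and one for all CML-TKI samples, so columns were matched by group and by the number in the sample titles; whether the fourth CML column is the fourth labelled sample rests on its group name alone. Its counts differ from those of CML 1. Every column was used.

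The estimated counts, once rounded, were analysed with edgeR 4.0.16 (R 4.3.3), using TMM, filterByExpr (minimum count 10, minimum total 15), robust dispersions and the quasi-likelihood test, two-sided, over 11937 genes; p-values were adjusted by the Benjamini-Hochberg method and called under 0.05; no covariate was used. Standard errors are the absolute log2 fold change over the square root of F. CPM are TMM-normalized, floors are 3 counts, and intervals are at 95%. Positions, transcript lengths and upstream sequences came from RefSeq tables of GRCm38.p6 and GENCODE M21 (the assembly of mm10); all 10 receptors matched. Alternatives were DESeq2 1.42.0, limma 3.58.1 voom with quality weights, other normalizations and filters, thinning to 1041554 counts, a replicate block, and other sets of libraries.

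The receptors and lists were chosen with earlier results of these data known. The genes named are all receptors, up to 5 genes per pathway list and direction past the threshold by adjusted p, the gate markers and the top 2 markers per list by mean CPM; others were named after their values were seen. Some listed genes are not reported here by name. On simulated counts with 199 genes changed 4-fold among 11921 tested the test recovered 54.8% (6.84% of its calls false). With 197 changed 8-fold among 11901 it recovered 79.7% (2.48% false). These rates describe the simulated counts only. In the real data some CML libraries resembled one another far more closely than other pairs of libraries did. Whether the rates hold for such libraries, or for receptors with few counts, was not tested.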

Additional observations from a re-analysis of the deposited data

Results flagged for a closer look

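Within groups of 4 libraries, the highest or lowest value of each receptor was compared with the others by the gap to its neighbour over the whole range and set against Dixon's 95% critical value. Of 20 groups, 3 were past it, where chance gives about 1 if values are normally distributed. The gaps were taken on CPM without logarithm, and low counts are skewed, so that figure is only a rough guide. Fpr1 was at 6.53 CPM in CML-TKI 3 and at 0 to 0.755 CPM in the other CML-TKI libraries. Fpr2 was at 40.3 CPM in CML-TKI 3 and at 0 to 2.77 CPM in the others. C3ar1 was at 1.73 CPM in CML 3, from 9 counts, and at 0.137 to 0.383 CPM in the other CML libraries.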

How the results depend on the processing

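Ccr1 was called higher in all 18 alternatives (log2 fold change 4.06 to 5.06). No receptor changed sign in any alternative, and Cxcr2, C5ar1 and S1pr1 were called in none. With CML libraries 1 to 3 summed to 1, Cxcr4 (1.72, adjusted p = 0.262), Cx3cr1 (6.58, 0.123), C3ar1 (4.36, 0.194) and Ltb4r1 (4.45, 0.0529) missed the threshold. The same 4 missed it with the replicate block on libraries 1 to 3 (1.83, 5.30, 4.02 and 3.75), and the first 3 on those libraries without the block, an alternative chosen after seeing the data (2.07, 5.05 and 3.80). Same-numbered libraries correlated at -0.0416, 0.0972 and 0.0934, and differently numbered ones at -0.139 to 0.0992. So few libraries cannot settle whether the numbers used for the block mark pairs. Leaving out 1 library gave 1.70 to 2.20 for Cxcr4, 5.48 to 7.98 for Cx3cr1 and 3.56 to 5.12 for C3ar1.

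The number of genes called, 1220 (751 higher and 469 lower), became 122 (102 and 20) with CML 1 to 3 summed, 193 (150 and 43) with the block and 589 (400 and 189) without it. limma-voom gave 2563 (1249 and 1314), DESeq2 2157 (1154 and 1003), and leaving out 1 library 505 (CML 1) to 2504 (CML-TKI 1), of which 364 to 1171 were higher and 141 to 1333 lower. The number of pathway genes called, 21 (18 higher, 3 lower), became 4 (4 and 0) with the sum, 9 (7 higher) with the block and 12 (9 higher) without it; leaving out 1 library gave 11 (CML 1) to 28 (CML-TKI 1), of which 10 to 22 were higher and 1 to 6 lower, and 10 were lower by voom and 6 by DESeq2. The median of all genes moved by over 0.1 with voom (-0.11) and with the block (-0.13). The cause of these changes was not tested. Cxcr2 in 1 alternative and Cx3cr1, C5ar1 and C3ar1 in 2 each gave no value, having too few counts.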
